A study of Mus musculus with 4 samples.

Results

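The arrays described here compared 4TO7 cells with a reference pool. 4TO7 is a mouse mammary tumour line from a BALB/cfC3H animal, and the cells stably carried the retroviral vector pMSCV-puro with no insert. They were 2 of the 4 arrays in the series, chosen by their titles, and were labelled replicates 1 and 2 of the vector group. The series calls them transfection replicates, so any p-value measures the spread between these cultures of 1 line. The other 2 arrays, of cells with the miR-23b/27b/24 cluster in the same vector, were not used. Cells had been grown in DMEM with serum, and total RNA was labelled with Cy5. On the same array the Cy3 channel held Universal Mouse Reference RNA, which the labels describe as a mix of 11 mouse cell lines. A ratio therefore sets 1 tumour line against the average of a pool, not against normal mammary tissue. The dyes were not swapped, so a probe's dye bias cannot be told apart from its ratio.

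Carcinoma cells that keep an epithelial state hold their neighbours through E-cadherin, claudins and desmosomes, and attach to a basement membrane of laminins and type IV collagen. Transcription factors of the Snail, Zeb and Twist families can switch such genes off and mesenchymal genes on, which is called epithelial to mesenchymal transition. The mammary epithelium has an inner luminal layer, which makes milk, and an outer contractile myoepithelial layer. Tumour cells also secrete chemokines and colony-stimulating factors that act on blood cells.

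Each gene was measured by the log2 ratio of Cy5 over Cy3, where 1 is a 2-fold difference and positive values mean more signal from 4TO7 cells. Ratios could be tested for 22901 genes, of which 20005 were well above background in both channels on both arrays. A gene was called when its mean ratio was past 2-fold and its limma adjusted p against a ratio of 0 was under 0.05. By that rule 3349 genes (14.6%) were called, 1062 higher in 4TO7 cells (4.64%) and 2287 lower (9.99%). The 4.64% and 9.99% are the shares beside which the counts of each gene list below stand. Among the genes well above background in both channels 15.4% were called, 5.21% higher and 10.2% lower. At least 4-fold differences were more often lower, with 689 genes lower and 241 higher, and at least 16-fold differences numbered 45 lower and 22 higher. The same sign was seen on both arrays for 79.4% of genes, 2762 genes (12.1%) lay past 2-fold on both, and 0 lay past it in opposite directions. These calls rest on replacing outlying local backgrounds by the array's median: with every local background as measured limma called 0 genes, while 4709 genes had an unadjusted p under 0.05 and 1072 lay past 2-fold on both arrays.

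**Figure D1:**
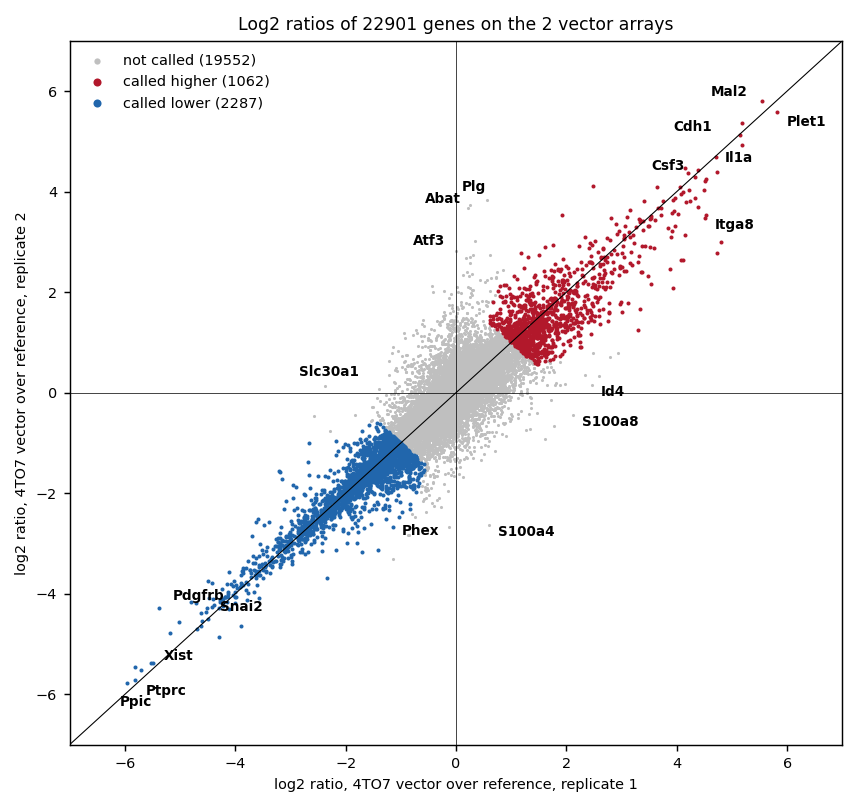
Log2 ratio of 4TO7 vector cells over reference RNA for each of the 22901 genes, replicate 1 on the horizontal and replicate 2 on the vertical axis. Red points are the 1062 genes called higher, blue points the 2287 called lower, and the diagonal marks equal ratios. Cdh1, Mal2 and Plet1 lie at the top right, Ppic, Ptprc and Xist at the bottom left, and Plg, Abat, S100a4 and Phex far from the diagonal.

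The genes furthest above the reference included several of epithelial cells. Plet1, a surface protein of trophoblast and other epithelial progenitors, had log2 ratios of 5.82 and 5.59 on replicates 1 and 2, a 52.1-fold difference. Mal2, a protein of apical membrane transport in polarised epithelia, had 5.54 and 5.80. Cdh1, which encodes E-cadherin, had 5.19 and 5.36, a 38.7-fold difference with a 95% interval of 4.96 to 5.59 on the log2 scale (n = 2 arrays). The lowest single value of these 3 genes was 36.5-fold, for Cdh1 on replicate 1, and the limma adjusted p was 0.0012 for each, the smallest value in the table. Next came Il1a, the cytokine interleukin 1 alpha, at 4.70 and 4.69, the lysosomal protease Ctsh at 4.73 and 4.38, and Csf3, the colony-stimulating factor for neutrophils, at 4.38 and 4.42. Lsr, a protein of tricellular tight junctions, stood at 4.52 and 4.25, and Krtcap3 at 4.34 and 4.29. The transcription cofactor Lmo1 had 4.50 and 4.21, the serine protease Prss12 4.20 and 4.37, and the claudin Cldn3 4.15 and 4.46. By the array files, which use the mm7 build, Cdh1 was read at chromosome 8 from 105268557 to 105268616 and Plet1 at chromosome 9 from 50483584 to 50483643.

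The genes furthest below the reference included genes of blood cells and of matrix. Ppic, a cyclophilin, had log2 ratios of -5.96 and -5.77, a 58.3-fold difference. Ptprc, the leukocyte phosphatase CD45, had -5.82 and -5.72 at its brightest probe, placed by mm7 at chromosome 1 from 137950290 to 137950349. Of its 4 probes the least different had a mean of -0.25. The matrix glycoprotein Efemp1 stood at -5.71 and -5.51 and the lysosomal protease Ctss, found in antigen-presenting cells, at -5.49 and -5.37. Xist, the RNA of X inactivation, had -5.53 and -5.38, with probe means reaching -0.45. Also among the 12 lowest were Rpl39l, the selenium carrier Selenop, Itm2a, Xlr and the basement membrane protein Nid1, with mean log2 ratios from -4.98 to -4.58. Both arrays stood below -4 for each of the genes named here, and the limma adjusted p was at most 0.0012. Rpl39l and Xlr have close relatives in the genome, so their probes may read more than 1 gene.

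Some probes were not well above background in one channel on both arrays, so their difference is only bounded. Among 1586 genes of this kind in the Cy5 channel, 141 were called lower. The glycosyltransferase B3galnt1 was at least 12.3-fold lower in 4TO7 cells, the Y-linked translation factor Eif2s3y at least 10.4-fold and Zfp677 at least 8.47-fold. Bounds of 6.98-fold, 6.80-fold, 6.74-fold and 6.68-fold held for Slfn4, Hoxa11, Hoatz and the matrix protein Aspn (limma adjusted p at most 0.00148 for these 7 genes). Each bound divides the bright channel's mean by the dim one's, where the dim probe counts as no less than the faintest probe called well above background on that array. In the reference channel 43 genes stayed at background, of which 9 were called higher. The membrane serine protease Tmprss11e was at least 16.8-fold higher in 4TO7 cells, Nrarp, an inhibitor of Notch signalling, at least 4.45-fold and the neuronal pentraxin Nptx1 at least 3.49-fold. Ccdc125, Defb37 and Adamts8 were at least 2.81-fold, 2.23-fold and 2.02-fold higher. All these bounds hold for the processing reported here. Under other settings the log2 ratio of Tmprss11e ranged from 2.14 to 8.05 and that of B3galnt1 from -6.51 to -1.92. The smaller ends of these ranges lie inside the bounds given.

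Genes of epithelial cell junctions were higher in 4TO7 cells. Of 34 measured members 20 were called higher and 0 lower, that is 58.8% against 4.64% of all genes. Their median log2 ratio was 1.27, with 1.20 on replicate 1 and 1.15 on replicate 2, where the median of all genes was 0.01. Beside Cdh1 and Cldn3 the largest ratio was that of the desmosomal cadherin Dsg2, at 3.94 and 3.62, although another of its 4 probes had a mean of 0.50. Claudins Cldn4 and Cldn7 and the tight junction protein Ocln were also called, with mean ratios of 3.39, 2.57 and 2.73, as was Dsp, the desmosome's link to keratin filaments, at 3.17. Another of the 4 probes for Dsp had a mean of 0.63. Epcam, an epithelial adhesion molecule, was only 2.45-fold higher, at 1.17 and 1.42 (limma adjusted p = 0.00509). The scaffold gene Tjp1 had 0.59 and 0.31 and the claudin gene Cldn1 0.26 and -0.07, and neither passed the rule. The lowest member was the plakophilin Pkp1, at -0.59 and -1.20. Both arrays were above 0 for every member called.

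Regulators of the epithelial state went with the junction genes. Of 20 measured, 13 were called higher and 1 lower, with a median log2 ratio of 1.98. Macc1, a transcriptional activator first described in colon cancer, had 4.38 and 3.69, the grainyhead factor Grhl2 3.72 and 3.68 (its second probe 0.60), and the protease inhibitor Spint1 3.65 and 3.67. The epithelial splicing factors Esrp1 and Esrp2 had mean ratios of 2.71 and 2.52. The proteases Prss8 and St14, which Spint1 and Spint2 inhibit, had 2.76 and 2.08, and Spint2 itself 2.61. Grhl1, a relative of Grhl2, stood on the other side, lower at -1.79 and -1.02 (limma adjusted p = 0.016). Its probe was well above background in Cy5 on only 1 array, and its log2 ratio ranged from -2.50 to -0.50 over the alternative settings. Trp63, the p53 family factor of basal cells, had -1.0 and -0.90 at its brightest probe, just short of 2-fold, and a mean of 0.02 at the other. Over the alternative settings the list median lay between 1.26 and 2.46, and that of the junction genes between 0.76 and 1.57.

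**Figure D2:**
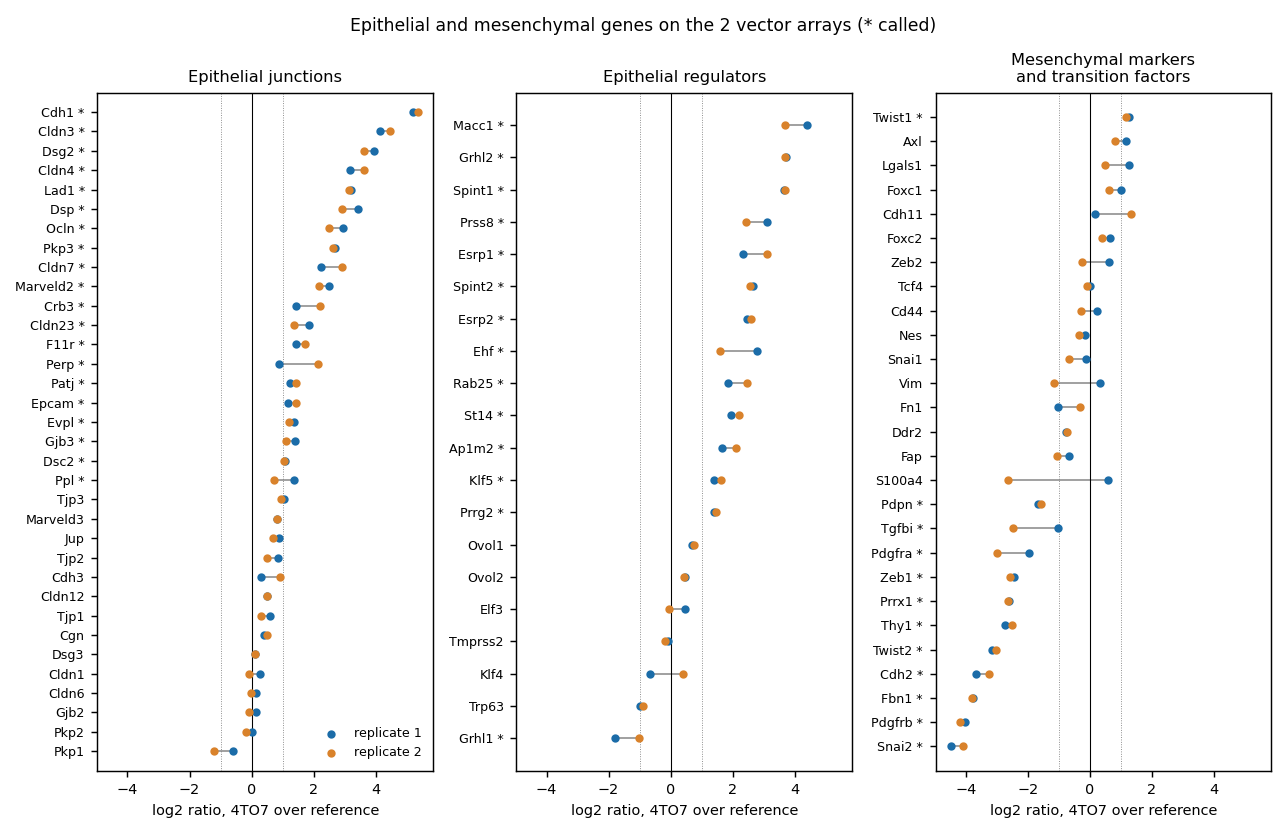
Log2 ratio of 4TO7 vector cells over reference for every measured member of 3 gene lists, with replicate 1 in blue, replicate 2 in orange, a bar joining them, and dotted lines at 2-fold. Asterisks mark called genes. Most junction genes and regulators lie to the right of 0, while Snai2, Pdgfrb, Fbn1 and Cdh2 lie furthest left, and S100a4 and Vim have their arrays on opposite sides of 0.

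The stretch before the start of 3 called junction genes is shown because it holds the sequence CACCTG, the E-box to which Snail and Zeb repressors are known to bind. On either strand, CACCTG was found in the 250 bases before the start of 10 of the 19 junction genes with a RefSeq promoter (52.6%), of 7 of the 11 called higher and of 3 of the 8 not called. It was found in 19.4% of all 27025 genes with a promoter, and in 19.1% of those tested here. Cldn4, Ocln and Cldn7 had the largest ratios among the 7, with means of 3.39, 2.73 and 2.57. In RefSeq coordinates of GRCm38.p6 the stretches are chr5:134946935-134947184 and chr13:100552499-100552748, both on the minus strand, and chr11:69965171-69965420 on the plus strand. They are written 5′ to 3′ toward the start, with CACCTG or its reverse complement CAGGTG in capitals.
Cldn4: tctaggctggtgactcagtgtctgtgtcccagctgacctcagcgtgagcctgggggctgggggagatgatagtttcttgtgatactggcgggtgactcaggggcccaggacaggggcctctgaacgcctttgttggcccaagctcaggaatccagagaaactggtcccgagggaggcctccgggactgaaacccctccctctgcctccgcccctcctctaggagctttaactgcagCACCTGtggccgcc
Ocln: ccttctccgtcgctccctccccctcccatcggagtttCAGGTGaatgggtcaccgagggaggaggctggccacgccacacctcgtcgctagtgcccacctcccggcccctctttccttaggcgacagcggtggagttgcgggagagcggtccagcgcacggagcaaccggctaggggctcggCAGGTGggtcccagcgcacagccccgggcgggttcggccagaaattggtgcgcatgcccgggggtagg
Cldn7: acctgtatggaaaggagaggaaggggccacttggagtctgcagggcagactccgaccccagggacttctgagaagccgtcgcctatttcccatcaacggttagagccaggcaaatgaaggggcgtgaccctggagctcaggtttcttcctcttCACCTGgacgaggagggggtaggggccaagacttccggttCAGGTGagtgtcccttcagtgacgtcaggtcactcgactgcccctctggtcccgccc
Cldn4 holds 1 such match and the other promoters 2 each, and no match overlaps another. A match describes the letters only.

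Keratin genes lay on both sides of the reference. Keratins form the filaments of epithelial cells, in pairs of a type I and a type II chain. The simple keratin Krt7 had log2 ratios of 3.39 and 3.41 and Krt18 had 2.37 and 1.65, both called higher. Krt8, the usual partner of Krt18, had 0.80 and 0.06 and was not called (limma adjusted p = 0.217). Krt20, a keratin of gut and urothelium, was lower at -3.23 and -2.90. Among 10 stratified and basal keratins only Krt13 was called, at 1.51 and 1.00, and its second probe had a mean of -0.77. The basal keratins Krt5 and Krt14 had 0.17 and 0.15 and 0.80 and 0.54, and neither passed the rule.

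Of 24 luminal and milk genes 6 were called higher and 4 lower, beside 4.64% and 9.99% of all genes, with a median of 0.38. Lcn2, an iron-binding lipocalin, led with 3.15 and 3.09. Gata3, the transcription factor that maintains luminal cells, had 2.81 and 2.40, and Areg, the growth factor by which oestrogen signals drive duct growth, had 2.68 and 2.44. All 3 lay above 5-fold on both arrays. The receptor Erbb3 had 1.80 and 1.74 at its brightest probe and a mean of 0.10 at its least different one. Esr1, the oestrogen receptor, had 1.5 and 1.74 at one probe but a mean of 0.07 at the other, so its 2 probes disagree. Foxa1, which opens chromatin for that receptor, had 0.50 and 0.52, Erbb2 had 0.55 and 0.35, and neither passed 2-fold. Pgr, the progesterone receptor, has a probe on the array but was not well above background on both arrays in either channel. Lower were the T-box factor Tbx3 at -3.0 and -2.54 (second probe -0.07), the secreted Wnt4 at -1.72 and -1.89 and Xdh, an enzyme needed for milk fat secretion, at -1.31 and -1.66. The milk protein genes Wap, Lalba and Csn3 had mean ratios of 0.16, 0.37 and 0.39.

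Contractile genes of myoepithelium and smooth muscle were lower more often than higher. Of 17 measured, 8 were called lower and 1 higher, with a median of -0.86. The myosin light chain Myl9 had -3.81 and -3.93, the tropomyosin Tpm2 -2.94 and -2.86, and the myosin kinase Mylk -2.23 and -2.63 at its brightest probe, with another at 0.11. Acta2, the smooth muscle actin that marks myoepithelium, had -0.71 and -0.84 at its brightest probe and was not called, but the means of its 4 probes ran from -3.73 to -0.39. Cald1, which binds actin, was the exception at 2.11 and 1.86, and its 2 probes lay between 1.98 and 2.17.

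Mesenchymal genes were lower or near the reference, with few exceptions. Of 27 members 11 were called lower and 1 higher, and the median log2 ratio was -0.75. Snai2, the Snail family repressor also called Slug, had -4.48 and -4.08, the PDGF receptor Pdgfrb -4.01 and -4.19 and fibrillin, encoded by Fbn1, -3.77 and -3.81. N-cadherin, encoded by Cdh2, had -3.68 and -3.26 at its brightest probe and a mean of -0.29 at the other. Both arrays of these 4 genes lay below -3. Among the other transition factors Zeb1 was lower, at a mean of -2.50, and Twist2 at -3.09. Snai1 had -0.14 and -0.67 and Zeb2 0.60 and -0.26, and neither was called. Twist1 was called higher, at 1.25 and 1.16 (limma adjusted p = 0.00446). Vimentin, the mesenchymal filament encoded by Vim, had 0.33 and -1.16, so the 2 arrays lay on opposite sides of the reference, and so did S100a4, at 0.59 and -2.63.

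Matrix genes were lower more often than higher. Of 53 measured, 25 were called lower and 9 higher. The fibrillar collagen gene Col1a1 stood at -4.71 and -4.19 at its brightest probe, with the least different of its 3 probes at -1.01, and Col3a1 had a mean of -4.41. The small proteoglycan Dcn had -4.04 and the collagen-crosslinking enzyme Lox -3.42. The nidogens Nid1 and Nid2, which link laminin to type IV collagen, had -4.30 and -4.87 and -4.50 and -4.51. Among the members called higher were laminin chains of epithelial basement membranes, Lama5 at 1.80 and 1.82, Lamb3 at 2.01 and 1.47 and Lama3 at a mean of 1.66. Lama3 and Lamb3 are chains of the laminin that hemidesmosomes hold. The type IV collagen chains Col4a1 and Col4a2 had means of -0.08 and 0.11, and neither was called. The list median was -0.94 and lay between -1.45 and -0.83 over the alternative settings.

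Some integrin subunits that bind laminin were also higher. Of 20 integrins 5 were called higher and 2 lower, beside 4.64% and 9.99% of all genes. The lower count is near the share of all genes. Itgb4, the hemidesmosome subunit, had 3.31 and 2.71 and Itga3, a laminin-binding subunit, 2.51 and 2.31. The 3 probes for Itga3 lay between 0.77 and 3.05. The collagen-binding subunits Itga2 and Itga1 had means of 1.93 and 1.27, but another of the 4 probes for Itga1 had -0.43. Itga8 had the largest ratio, at 4.52 and 3.47, but another of its 3 probes had a mean of 0.24, and another of the 3 for Itgb4 had 0.66. Lower were Itga11, a receptor for fibrillar collagen, at -1.67 and -1.74, and Itga5, the fibronectin receptor subunit, at -0.97 and -1.32. The list median of 0.15 turned to -0.06 with no scaling within the array.

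Proteases and their inhibitors were divided, with 11 called higher and 10 lower of 40, beside 4.64% and 9.99% of all genes. Highest were the protease inhibitors Serpine2, at 3.90 and 3.1, and Wfdc2, at 3.26 and 3.29. The collagenase Mmp13 had 3.88 and 2.47, a 9.04-fold mean difference whose arrays differed by 1.41. The stromelysins Mmp3 and Mmp10 had means of 3.00 and 2.10, the urokinase Plau 2.13 and the membrane-type protease Mmp14 1.46. Lower, beside Ctss, were the metalloprotease inhibitor Timp3 at -3.22 and -3.24, the aggrecanase Adamts5 at -3.32 and -3.11 and the gelatinase Mmp2 at -2.39. The other gelatinase, Mmp9, had 0.25 and 0.79 and was not called.

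Chemokine and cytokine genes fell on both sides of the reference. Of 42 measured, 13 were called higher and 11 lower, 31.0% and 26.2%. Higher were the chemokines that bind CXCR2 on neutrophils: Cxcl5 had a mean of 3.89, Cxcl3 3.37, Cxcl2 2.46 and Cxcl1 2.22. The colony-stimulating factors went the same way, with Csf3 at 4.40 and Csf2, which encodes GM-CSF, at 1.90 and 2.46, whereas Csf1, the macrophage factor, had -0.36 and -0.31 and was not called. Ccl20, the ligand of CCR6, had 3.96 and 3.87, the transmembrane chemokine Cxcl16 3.78, and Il1a 4.70. Its relative Il1b had 0.03 and -0.13, near the reference. Lower were Cxcl12, the stromal ligand of CXCR4, at -4.62 and -4.39, and the CC chemokines Ccl4, at -3.57 and -3.63, and Ccl7, at -2.97 and -3.40. Il6 was lower too, with a mean of -1.48. Both arrays of the higher chemokines named here lay above 0 and both arrays of the lower ones below it. The list median was 0.05 and changed sign with median centring, with no scaling, with every local background as measured and without replicate 1.

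Among 55 growth factors and receptors 10 were called higher and 12 lower, beside 4.64% and 9.99% of all genes. Bmp7, a bone morphogenetic protein made by epithelia, had 2.67 and 2.71, and Areg and Erbb3 are given above. The EGF receptor ligands Hbegf and Tgfa had means of 1.57 and 1.42, but the receptor Egfr itself was lower, at -2.53 and -2.62, with its 6 probes between -3.26 and -0.71. The stromal factors Fgf7 and Vegfd were lower, at -3.52 and -3.40 and -3.17 and -3.40, and Fgf10 had a mean of -2.18. The hepatocyte growth factor receptor Met had 0.30 and -0.35 and its ligand Hgf a mean of -1.15, and only Hgf was called.

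Interferon response genes were often higher, and more so on replicate 2. Of 47 measured, 20 were called higher and 2 lower, and the median log2 ratio was 1.02. The median was 0.64 on replicate 1 and 1.23 on replicate 2, and only 3 members had the higher ratio on replicate 1. Oasl2 had 1.5 and 2.75 and the antiviral effector Ifit1 1.17 and 2.78, while the RNA sensor regulator Dhx58 had 1.93 and 2.08, with little between its arrays. Isg15, a ubiquitin-like modifier, had 0.62 and 2.02 and was not called (limma adjusted p = 0.0654). Stat2 and Irf9, which carry the interferon signal to the nucleus, had means of 1.12 and 1.55. Oas2 and Ifi44l were the members called lower, at -1.64 and -0.93 and -1.80 and -0.99. The cause of the difference between the arrays was not tested. Several of these families have near-identical members, so a probe may read more than 1 gene.

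MHC class I genes, which show peptides to T cells, were higher as well. Of 23 class I and processing genes 11 were called higher and 0 lower. H2-K1 and H2-D1, the classical class I genes, had means of 1.65 and 1.60, and H2-T23 had 1.46 and 2.22. H2-Q7 and H2-Q2 had 1.31 and 2.06 and 1.24 and 2.07. B2m, the light chain of class I, had 0.83 and 0.38, and the peptide transporter Tap1 0.02 and 0.73, and neither was called. Members of this family are near-identical, so a probe can read several of them. Among 9 class II genes 2 were called lower, the invariant chain Cd74 at -2.13 and -1.16 and H2-DMb1 at -2.35 and -2.18. The rest were not called, with means from -0.86 for H2-DMb2 to 0.48 for H2-Ab1. H2-Aa and H2-Eb1 both had a mean of 0.08. However, the H2-Aa probe was dim and well above background in Cy5 on only 1 array, and H2-Eb1 had -0.23 and 0.39.

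Promoters of 3 called interferon response genes are shown because they hold GAAANNGAAA, the core of the element bound by factors that interferon activates. The motif, on either strand, was in the 250 bases before the start of 18 of the 36 listed interferon genes with a RefSeq promoter (50%), against 3.46% of all 27025 genes. It was in 8 of the 14 called higher and in 9 of the 19 measured and not called higher. Ifit1, Gbp3 and Gbp7 had the largest ratios among the 8, with means of 1.97, 1.68 and 1.51. Gbp3 and Gbp7 encode guanylate-binding GTPases. The stretches are chr19:34640639-34640888, chr3:142559794-142560043 and chr3:142530086-142530335 in GRCm38.p6, all on the plus strand, with GAAANNGAAA or its reverse complement TTTCNNTTTC in capitals.
Ifit1: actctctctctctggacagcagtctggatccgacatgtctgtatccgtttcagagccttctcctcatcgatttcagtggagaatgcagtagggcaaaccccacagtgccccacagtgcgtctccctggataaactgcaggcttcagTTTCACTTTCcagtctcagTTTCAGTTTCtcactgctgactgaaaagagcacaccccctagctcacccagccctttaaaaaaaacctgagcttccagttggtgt
Gbp3: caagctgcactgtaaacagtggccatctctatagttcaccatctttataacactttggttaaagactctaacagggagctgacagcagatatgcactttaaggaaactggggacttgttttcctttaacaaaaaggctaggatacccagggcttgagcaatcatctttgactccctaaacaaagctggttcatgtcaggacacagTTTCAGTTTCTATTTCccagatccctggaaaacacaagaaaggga
Gbp7: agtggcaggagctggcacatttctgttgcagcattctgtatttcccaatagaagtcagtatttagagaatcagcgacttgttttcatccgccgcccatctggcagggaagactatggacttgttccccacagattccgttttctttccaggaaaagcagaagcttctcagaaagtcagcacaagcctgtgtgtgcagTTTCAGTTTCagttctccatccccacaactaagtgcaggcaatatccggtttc
Ifit1 holds 2 separate matches, Gbp3 2 that overlap, and Gbp7 1.

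**Figure D3:**
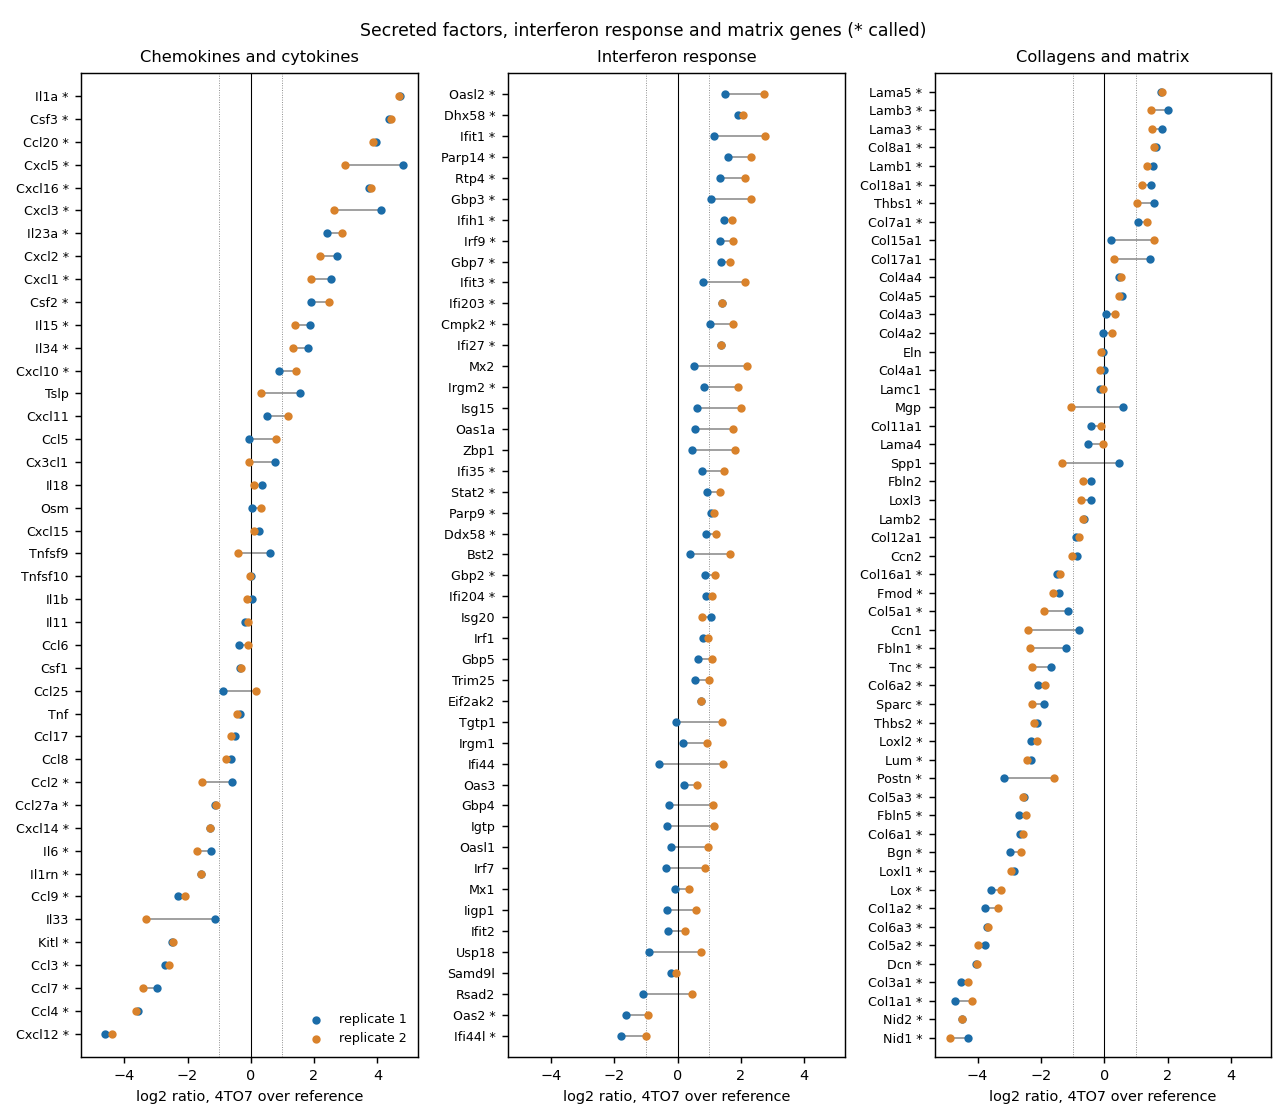
Log2 ratio of 4TO7 vector cells over reference for the chemokine and cytokine, interferon response and matrix lists, all but 2 of their measured members drawn, with replicate 1 in blue, replicate 2 in orange and dotted lines at 2-fold. Asterisks mark called genes. Il1a, Csf3 and Ccl20 lead the first panel, nearly all interferon genes have replicate 2 to the right of replicate 1, and laminin chains lead the third panel while nidogens and fibrillar collagens end it.

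Markers of leukocytes were lower than in the pool. Of 23 genes found in leukocytes of all kinds 19 were called lower and 0 higher, with a median of -2.10. Beside Ptprc, the adaptor Lcp2 had -3.34 and -3.26 and the cortactin relative Hcls1 -3.19 and -3.11. Among 37 macrophage and myeloid genes 22 were called lower and 0 higher, with the lectin Clec4d at -3.57 and -4.09 and the receptor Trem2 at -3.37 and -3.35. T cell and B cell genes had 9 of 23 and 8 of 20 called lower. The adaptor Lat had -3.18 and -2.89, the T cell receptor subunit Cd3g -2.68 and -2.72, the B cell coactivator Pou2af1 -4.02 and -3.75 and the B cell receptor subunit Cd79b -3.72 and -3.58. The only member of these 4 lists called higher was the IgM receptor Fcmr, at 1.37 and 1.00. Several defining markers were not called and lay near the reference or above it. Cd3e had a mean of -0.05 at its brightest probe and -0.84 at the other, and Cd8a had 0.12. Means were 0.20 for Cd79a and 0.56 for Pax5, and the T cell coreceptor Cd4 had 0.19 and 0.23. The probes for Cd8a, Cd79a and Pax5 were dim in both channels, with log2 signals from 6.37 to 7.20. The faintest probes called well above background had 6.08 to 6.25. Ratios of such dim probes do not show that 4TO7 cells express these genes. A low ratio shows less signal in 4TO7 RNA than in the pool average and does not say which line of the pool holds the transcript.

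Markers of other tissues were lower in small numbers, in some lists no more often than genes in general. Called lower were 6 of 37 hepatocyte genes, 10 of 41 skeletal muscle genes and 5 of 16 adipocyte genes, beside 9.99% of all genes. For germ cell, pluripotency, kidney, endothelial and neural genes the counts were 5 of 34, 5 of 21, 2 of 20, 2 of 20 and 3 of 19. For the germ cell, kidney, endothelial and neural lists these are 14.7%, 10.0%, 10.0% and 15.8%, beside 9.99% over all genes. The kidney and endothelial counts are thus at that share, and the germ cell and neural counts are near it. Called higher were 2 neural, 2 skeletal muscle, 1 germ cell and 1 kidney genes, and 0 of the hepatocyte, adipocyte, pluripotency and endothelial lists. For the neural list that is 10.5%, beside 4.64% over all genes. The higher counts of the skeletal muscle, germ cell and kidney lists are near the share over all genes. Fetal alpha-fetoprotein, encoded by Afp, had -1.82 and -2.45, the retinol carrier Rbp4 -2.39 and -2.39, the muscle genes Tnnt1 and Acta1 -2.58 and -2.80 and -2.38 and -2.58, and the lipase Lpl -3.42 and -3.06. The scavenger receptor Cd36 had -3.09 and -2.87, the gonad and kidney factor Wt1 -2.28 and -2.37, and the pluripotency genes Tfcp2l1 and Dppa4 -1.80 and -1.59 and -1.65 and -1.59. Another of the 4 probes for Tfcp2l1 had a mean of 0.02. Esm1, an endothelial proteoglycan, had -3.25 and -3.16, and Pecam1, the endothelial adhesion molecule CD31, -0.72 and -0.74. The tissue genes called higher were the cardiac troponin gene Tnnt2 at 2.28 and 2.34, the water channel Aqp3 at 3.33 and 1.67, and Sox9, a factor of testis, cartilage and epithelial progenitors, at 1.99 and 2.51, with another of its 3 probes at 0.56, together with the acetylcholine receptor subunit Chrnb1 at 1.20 and 1.23, the neuronal microtubule protein Map2 at 1.32 and 1.41 and the myelin protein Mbp at 1.07 and 1.09. Other probes of Map2 and Mbp had means down to 0.28 and 0.11.

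**Figure D4:**
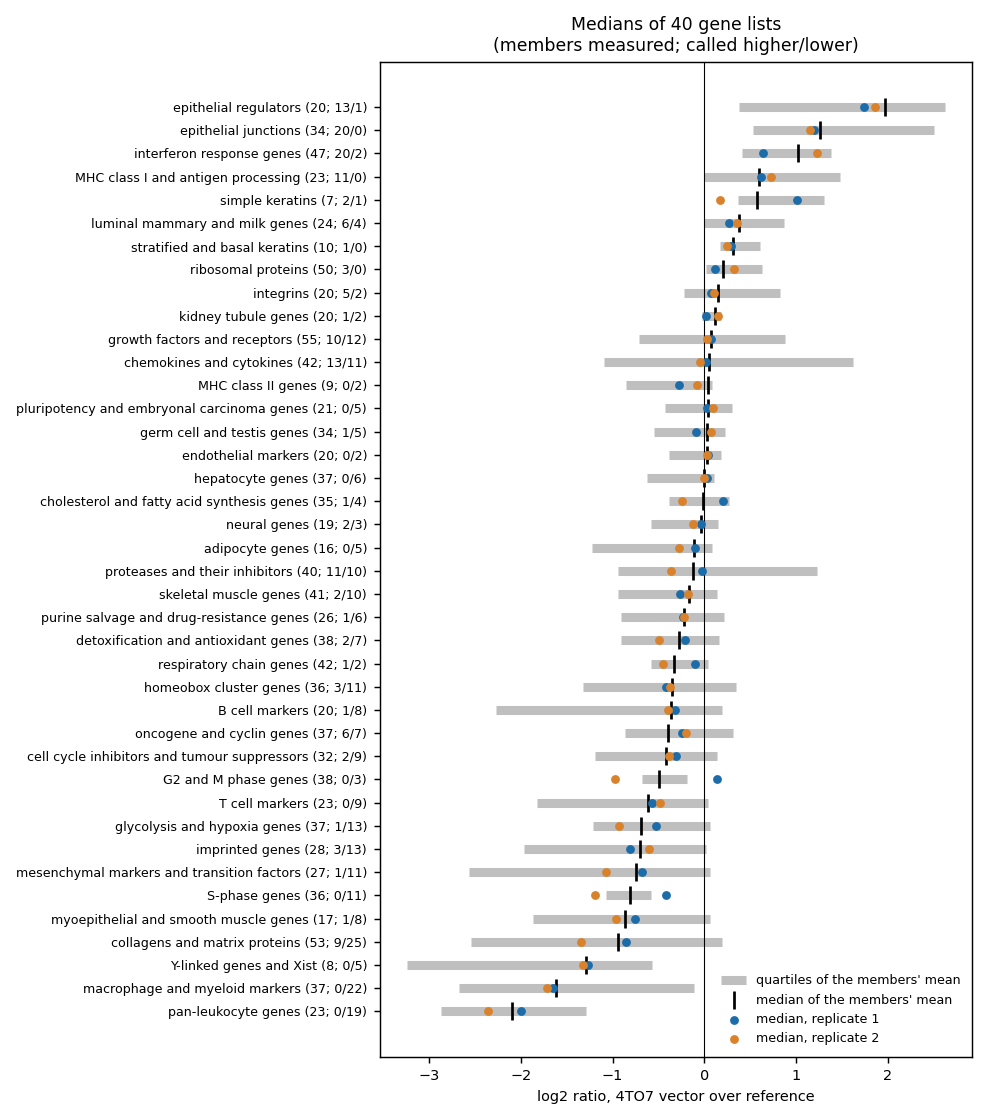
Median log2 ratio of each of 40 gene lists in 4TO7 vector cells over reference, with grey bars for the quartiles of the members' means, black ticks for their median, blue for replicate 1 and orange for replicate 2. The counts after each name are members measured and members called higher and lower. Epithelial regulators stand at the top and pan-leukocyte genes at the bottom, and the arrays are furthest apart for G2 and M phase genes.

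Homeobox cluster genes, which set position along the body axis, lay on both sides of the reference. Of 36 measured, 3 were called higher and 11 lower, beside 4.64% and 9.99% of all genes. All 3 higher genes lie in the HoxA cluster: Hoxa5 had 2.83 and 2.38, Hoxa2 2.69 and 2.06 and Hoxa7 1.32 and 1.15. Lower were Hoxc9 at -4.22 and -4.25, Hoxb2 at -2.78 and -3.10 (second probe -0.53) and Hoxc6 at -2.85 and -2.81, and within HoxA itself Hoxa11, given above as a bound, and Hoxa9 at a mean of -1.24.

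Imprinted genes, read from only the maternal or the paternal copy, were often lower, with 13 of 28 called lower and 3 higher. Grb10, an adaptor that restrains insulin signalling, had -3.98 and -4.06 at its brightest probe and a mean of -0.45 at the least different of 3. The paternally read antisense RNA Kcnq1ot1 had -3.49 and -3.54, and the growth regulator Dlk1 -3.17 and -2.68. Of the genes that Kcnq1ot1 is known to silence on the paternal copy, Phlda2 was higher, at 3.34 and 3.43, and Cdkn1c, an inhibitor of the cell cycle, had -1.04 and -0.96 and was not called. Igf2r, the receptor that clears Igf2, was also higher at 1.98 and 1.39, while its antisense RNA Airn had a mean of -1.25 and its ligand Igf2 -1.92. Snrpn had 1.46 and 1.32. Of the Y-linked genes Ddx3y was lower at -3.15 and -3.27, Kdm5d had a mean of -1.14 and Uty was at least 2.13-fold lower. Zfy1 and Zfy2 had means of 0.15 and 0.29 and were not called.

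Several inhibitors of the cell cycle and targets of p53 were lower. Of 32 inhibitors and tumour suppressors 9 were called lower and 2 higher. Cdkn2b, the inhibitor p15 of cyclin D kinases, had -3.62 and -3.68, and Cdkn2a, which encodes the tumour suppressors p16 and p19ARF, -2.37 and -2.42. Mtap, a methionine salvage enzyme whose gene neighbours Cdkn2a, was higher at 1.41 and 1.32. In mm7 the Cdkn2a probe is at chromosome 4 from 88678367 to 88678426 and that of Mtap at chromosome 4 from 88584035 to 88584094. The p53 targets Pmaip1, a killer protein of the Bcl2 family, and Cdkn1a, the inhibitor p21, had -3.44 and -3.57 and -2.30 and -2.68, and Ccng1 a mean of -2.18. Trp53 itself had -0.35 and 0.61, on opposite sides of the reference, and the p53 targets Mdm2 and Bax had means of -0.70 and -0.01. Cdkn1b, the inhibitor p27, was higher at 1.19 and 1.26, with its 3 probes between 0.13 and 1.88.

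Among 37 oncogene and cyclin genes 6 were called higher and 7 lower, beside 4.64% and 9.99% of all genes. The early response gene Fos had -4.52 and -4.37, Mycl -3.99 and -3.82 and Myb, a factor of blood progenitors, -2.19 and -2.64 at its brightest probe and -0.02 at its least different one. Myc had 0.79 and 1.59 (limma adjusted p = 0.026), the factor Ets1 1.83 and 1.36, the chromatin protein Hmga1 1.68 and 1.30 and the growth coactivator Yap1 1.58 and 1.13. The cyclin Ccnd1 had 0.52 and -0.05 and the kinase Cdk4 -0.25 and -0.01, and neither was called.

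Among genes of proliferation those of S phase were mostly lower than the reference. For those of G2 and M phase the arrays disagreed on the side. S-phase genes had a median of -0.81, with 11 of 36 called lower and 0 higher, but the median was -0.42 on replicate 1 and -1.19 on replicate 2. The ribonucleotide reductase subunit Rrm2 had -1.29 and -2.24 and the replication licensing factor Cdc6 -0.97 and -1.82. For 38 G2 and M phase genes the median was 0.14 on replicate 1 and -0.98 on replicate 2, on opposite sides of the reference, and all 38 members had the lower ratio on replicate 2. The cyclin Ccnb2 had 1.35 and -0.09. Only 3 were called, all lower, beside 9.99% of all genes. They were the proliferation antigen Mki67 at -0.98 and -2.37, Racgap1 at -0.84 and -1.85 and the kinetochore gene Spc25 at -0.76 and -1.86. The cause of the difference between the 2 arrays was not tested.

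Single genes differed between the arrays as well. The SD of the difference over all genes was 0.398 on the log2 scale, and the ratios correlated at 0.888 across genes, which are not independent replicates. Replicate 2 had the higher ratio for the plasmin precursor Plg, at 0.56 and 3.83 on replicates 1 and 2, for Abat, an enzyme of GABA breakdown, at 0.23 and 3.67, and for the stress factor Atf3, at -0.01 and 2.83. Angptl6, the zinc exporter Slc30a1 and the RNA Snhg16 differed the same way, with replicate 1 minus replicate 2 between -2.56 and -2.50. Replicate 1 had the higher ratio for the calcium-binding proteins S100a4, given above, and S100a8, at 2.12 and -0.45, and for the fatty acid carrier Fabp4, at 1.61 and -0.92. The protease inhibitor Slpi, the peptidase Phex and Id4, an inhibitor of helix-loop-helix factors, differed in that direction, by between 2.30 and 2.55. None of these 12 genes was called.

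Ratios were lower along much of chromosome 15 and parts of the X chromosome. Genes were placed by their probes in mm7, and medians were taken over windows of 40 neighbouring genes with a step of 20. Of 788 windows 26 had a median below -0.3, of which 12 lay among the 31 on chromosome 15 and 4 among the 26 on X, while 2 windows lay above 0.3. The lowest was on chromosome 15 from 79759195 to 82035662, with a median of -0.71 over both arrays, -0.69 on replicate 1 and -0.65 on replicate 2, and 8 of its 40 genes called lower. From 73 Mb onward, a boundary set after seeing the values, the 452 genes of chromosome 15 had a median of -0.29 with 17.9% called lower, against 0.04 and 11.7% for the 196 genes before it. On X 17.4% of 541 genes were called lower. Over all 16337 placed genes the median was 0.02 and 9.79% were called lower. The highest window, with a median of 0.34, lay on chromosome 12 from 88986427 to 100679377.

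The longest runs of neighbouring genes past 2-fold in the same direction on both arrays had 4 members. On chromosome 11 Slfn9, Slfn8, Slfn10-ps and Slfn2 of the Schlafen family were higher, with a median of 1.84, and on chromosome 7 B4galnt4, Pkp3, Sigirr and Ano9 were higher, with a median of 2.16. Lower were Rtn4rl1, Rpa1, Smyd4 and Serpinf1 on chromosome 11, Prtg, Pygo1, Dnaaf4 and Ccpg1 on chromosome 9, and the ketosteroid reductases Akr1c14, Akr1c13, Akr1c19 and Akr1c12 on chromosome 13, with medians of -1.37, -1.20 and -1.74. Schlafen and Akr1c genes have close relatives beside them, so probes may read more than 1 of them.

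**Figure D5:**
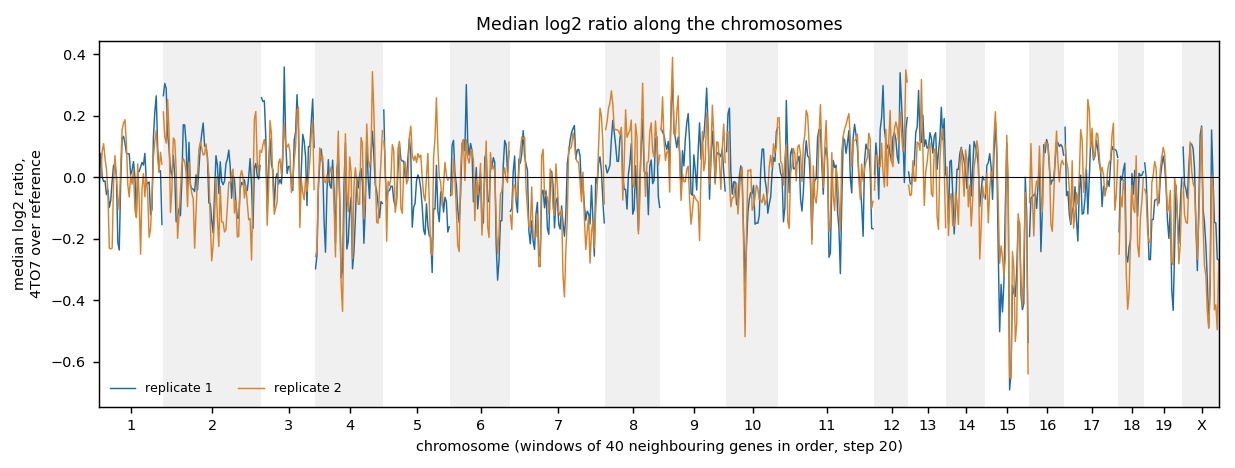
Median log2 ratio of 4TO7 vector cells over reference in 788 windows of 40 neighbouring genes, ordered along the chromosomes, with replicate 1 in blue and replicate 2 in orange. Both arrays dip on chromosome 15, to -0.69 and -0.65 in its lowest window, and on parts of X.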

How the data were processed

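Per the file headers, the authors' scanner files give, per spot and dye, the intensity of the feature, of its surroundings and after correction, together with a log10 ratio (red over green), made with Agilent Feature Extraction 9.5.3.1. The authors' deposited table holds values on a log2 scale with medians of 0.0133 and -0.0172. Differences between its 2 vector columns equalled those of the scanner's log ratio within 0.001 for 90.4% of probes, but single values did so for 0.117%, so it does not give the ratio to the reference and was not used further.

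Background was corrected with normexp (offset 50) in limma 3.58.1 under R 4.3.3, after local backgrounds marked as outliers (1905 and 1782 Cy5 spots) had been replaced by the array's median, followed by loess inside each array. Of 41174 probes, the 33873 well above background on both arrays in either dye were kept; Cy5 was so for 74.8% and 73.9% of probes and Cy3 for 83.8% and 83.1%. Where probes shared a gene, the brightest was taken. A RefSeq table of GRCm38.p6 named all but 8455 probes, which kept the name in the files. The mean ratio was tested against 0 by an intercept fit in limma (1 residual degree of freedom, 3.017 from the prior), with Benjamini-Hochberg adjustment over all genes. The test leaves out the reference's own spread, and 2 arrays limit its precision. On simulated ratios of 22901 genes it recovered 12% of changes of 1 on the log2 scale and 90.8% of changes of 2, and 8.64% of its calls were false.

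The arrays, the 40 gene lists, the call rule and the replacement of outlying backgrounds were chosen with earlier results of these data known. Genes named by rule were the 12 highest and 12 lowest called, up to 8 bounds per direction, up to 3 called members per list and direction (otherwise the 2 largest ratios), the 6 largest differences between arrays in each direction, and a set of marker genes. A few genes that these rules name are not reported here. Other members were named after their values were seen. Alternatives changed the background, the scaling, the filter, the choice of probe or the moderation, or left out an array.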

Additional observations from a re-analysis of the deposited data

How the results depend on the processing

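The calls depend on how outlying local backgrounds are treated. With every local background as measured limma called 0 genes, 0 higher and 0 lower, with a lowest adjusted p of 0.107, and 1072 genes lay past 2-fold on both arrays, 463 higher and 609 lower. There the fitted Cy5 background mean was -662 on replicate 1 and -51.2 on replicate 2, against -8.32 and -7.39 with outliers replaced. Feature Extraction signals with loess gave 5033 calls, 3649 of them lower, and 4236 genes past 2-fold on both arrays, 3146 of them lower. The Feature Extraction log ratio gave 1682 calls higher and 4164 genes past 2-fold on both arrays, 1290 of them higher. No scaling gave 669 calls higher and 522 genes past 2-fold higher on both arrays, and moved the median of all genes from 0.01 to -0.19; the Feature Extraction log ratio moved it to 0.13. Calls were 31.7% higher in the setting reported, 22.8% with median centring and 17.3% with no scaling. Over the settings that made calls, 77.2% (with a 1.5-fold floor in the test, which called 2585) to 99.9% of the 3349 genes were called again. Without replicate 1 or without replicate 2, genes past 2-fold higher on the array left were 1246 and 1220, by construction more than on both. Of the 213 genes named by rule 11 changed direction in some setting, 10 of the 22 not called (Angptl6, Atf3, Fabp4, Krt5, S100a4, S100a8, Slc30a1, Slpi, Trp53 and Vim) and, of the 191 called, Rps12, with a mean of -0.12 over its probes, which lay at -1.43 and 1.20. Of 1284 called genes with over 1 probe 256 (19.9%) had a probe of the opposite sign. The median of G2 and M phase genes was 0.14 without replicate 2, and list medians near 0 also changed sign. No paired analysis was possible because the 2 arrays are 1 group and the comparison lies within each array.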

Other observations

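Genes of glucose use and of the response to low oxygen were lower in 4TO7 cells than in the reference pool. Of 37 measured, 13 were called lower and 1 higher, with a median of -0.69, which was -0.52 on replicate 1 and -0.93 on replicate 2. The lactate exporter Slc16a3 had -3.27 and -2.92, and the hypoxia targets Ankrd37 and Bnip3 had -1.41 and -3.13 and -1.67 and -2.70. Hexokinase 2, encoded by Hk2, was the member called higher, at 1.05 and 1.09. Of 38 detoxification genes 7 were called lower, beside 9.99% of all genes. They were led by the glutathione transferase Gstm1 at -2.43 and -2.86, the metallothionein Mt1 at -2.91 and -1.87 and the retinal dehydrogenase Aldh1a1 at -2.29 and -2.16. Higher were Gpx4, which reduces lipid peroxides, at 1.17 and 1.36 and Aldh2 at 1.26 and 1.38, whose second probe had a mean of -0.31.

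Among purine and drug resistance genes Nt5e, the surface enzyme CD73 that makes adenosine, was the member called higher, at 3.33 and 3.38. The adenosine-removing enzyme Adk had -1.49 and -1.71, Ada a mean of -1.22 and the drug exporter Abcg2 -1.03 and -1.80, all called lower, and 6 of 26 were lower in all. Hprt, the salvage enzyme whose loss gives thioguanine resistance, had -0.56 and -0.59 and was not past 2-fold. Of 50 ribosomal protein genes 3 were called higher, Rplp1 at 1.48 and 1.39, Rps12 at 1.06 and 1.33 and Rps20 at 0.77 and 1.33, and 0 lower. Of 42 respiratory chain genes Ndufb5 was called higher, at 1.39 and 1.01, and Ndufb8 and Cyc1 lower, at -1.21 and -1.48 and -1.17 and -1.13. The counts of both lists were near or below the shares over all genes, 4.64% higher and 9.99% lower. In cholesterol and fatty acid synthesis few genes were called, in shares near the 4.64% higher and 9.99% lower over all genes. The lanosterol synthase Lss was lower at -1.39 and -1.33. The desaturases Fads1 and Scd2 had -1.16 and -1.51 and -0.82 and -1.37, and the regulator Srebf2 -0.93 and -1.20. Sc5d was higher, at 1.53 and 1.13. Other probes of Lss and Sc5d had means of -0.38 and 0.34. The list median was 0.21 on replicate 1 and -0.24 on replicate 2.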
